A study of Homo sapiens with 4 samples.

Results

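The genes described here act on the switch between the epithelial and the mesenchymal cell state. They were chosen by name: SNAI1, SNAI2, ZEB1, ZEB2 and TWIST1, which encode transcription factors that induce the epithelial-mesenchymal transition (EMT), GRHL2, OVOL1 and OVOL2, which encode transcription factors that maintain the epithelial state, and ESRP1 and ESRP2, which encode splicing factors of epithelial cells. Of these 10 genes, 9 had a probe set that the platform annotation maps to 1 symbol only, among 18417 such genes in all. ESRP1 was not analysed here. A gene with more than 1 probe set was read from the brightest of them on average.

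Total RNA of cells labelled PC3, a prostate cancer line first cultured from a metastasis in bone, was measured on Affymetrix HuGene-1.0-st-v1 arrays, 2 for each group. By their labels PC3-SCR cells carried the empty vector pBABE, and PC3-PDEF cells over-expressed PDEF, the ETS transcription factor encoded by SPDEF. Both were grown alike in DMEM/F12 medium with serum, and the paper names the control VC-PC3 and describes stable transfection. The labels do not say whether a line was 1 clone or a pool, or whether separate cultures stand behind the arrays of each group. The p-values thus measure the spread between these arrays only, and that spread may be technical. Groups were compared with limma, fitted over all 18417 genes, and the threshold for a call was an adjusted p of 0.05. The number of arrays limits the precision, and the smallest two-sided p of an exact permutation test with groups of 2 is 0.333.

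In an EMT, SNAI, ZEB and TWIST proteins repress genes of epithelial junctions, in part by binding E-box sequences such as CACCTG, and mesenchymal genes such as those of vimentin and N-cadherin come on. GRHL2 and OVOL proteins repress ZEB1, and GRHL2 activates junction genes. ESRP proteins select the epithelial form of transcripts such as those of FGFR2 and CD44. MicroRNAs of the miR-200 family bind the transcripts of ZEB1 and ZEB2 through their seed and lower them, and the ZEB proteins in turn repress the genes of these microRNAs. In prostate cancer, this balance is studied for its link to invasion.

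The miR-200 sequences are shown because they tie the ZEB genes to the epithelial state, and the capitals mark the seed, bases 2 to 8. They are RefSeq sequences on GRCh38.p14, written 5′ to 3′. miR-200b-3p, miR-200c-3p and miR-429 share the seed AAUACUG, and miR-200a-3p and miR-141-3p share the seed AACACUG.
hsa-miR-200b-3p (chr1:1167160-1167181, plus strand): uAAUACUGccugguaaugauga
hsa-miR-200c-3p (chr12:6963742-6963764, plus strand): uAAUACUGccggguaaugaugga
hsa-miR-429 (chr1:1169055-1169076, plus strand): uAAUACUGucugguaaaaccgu
hsa-miR-200a-3p (chr1:1167916-1167937, plus strand): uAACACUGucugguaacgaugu
hsa-miR-141-3p (chr12:6964155-6964176, plus strand): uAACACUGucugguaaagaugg

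RefSeq promoter windows of 300 bases were found for ZEB1 (7 windows) and ZEB2 (1 window). Both are shown, and by the probe set used for each gene these paralogs moved in opposite directions in the arrays. The 250 bases before the start of each gene on GRCh38.p14 are printed 5′ to 3′ on the strand of the gene, and capitals mark a match to a motif searched.
ZEB1 (chr10:31318167-31318416, plus strand): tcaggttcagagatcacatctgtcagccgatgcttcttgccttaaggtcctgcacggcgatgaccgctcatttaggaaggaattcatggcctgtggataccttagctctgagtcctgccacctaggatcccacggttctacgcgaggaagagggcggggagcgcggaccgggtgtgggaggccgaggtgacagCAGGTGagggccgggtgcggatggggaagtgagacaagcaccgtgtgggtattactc
ZEB2 (chr2:144520120-144520369, minus strand): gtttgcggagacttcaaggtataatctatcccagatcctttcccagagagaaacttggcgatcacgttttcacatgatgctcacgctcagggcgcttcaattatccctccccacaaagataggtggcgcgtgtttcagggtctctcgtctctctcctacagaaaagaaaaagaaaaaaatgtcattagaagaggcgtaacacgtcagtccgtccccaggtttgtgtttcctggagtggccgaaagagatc
Motifs were searched on both strands of the whole windows. The capitals in ZEB1 are an E-box (CACCTG, read here as CAGGTG), which 2 of the 7 ZEB1 windows and 20.6% of all 35116 windows hold. The OVOL motif CCGTTA was in 1 ZEB1 window, in the ZEB2 window after the start, outside the printed stretch, and in 3.07% of all windows. The ETS cores CCGGAA and CCGGAT, the latter favoured by SPDEF, were each in 1 ZEB1 window and not in the ZEB2 window, against 17.2% and 7.12% of all windows. The GRHL core ACCGGT was in none of these 8 windows and in 1.83% of all. A match is a stretch of letters and not a measured binding site.

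Signals near background were read against the highest of 361 olfactory receptor genes, most of which are expressed in the nose. It was OR2H2 in all 4 arrays. OR51E1 and OR51E2, known to be transcribed in prostate cells, were at 3.50 to 4.08 and did not set it. That gauge lay at 5.94 and 6.01 in the PC3-SCR arrays and at 5.65 and 5.75 in the PC3-PDEF arrays. SPDEF rose from log2 signals of 5.99 and 6.06 in PC3-SCR to 6.85 and 6.73 in PC3-PDEF (log2 fold change 0.77, standard error 0.088, adjusted p = 0.000563). Its PC3-SCR signals lay barely above the gauge, so the size of the rise is not exact. In the arrays labelled PC3-PDEF some signals went against the PC3 label. CTNNA1 and STAT3, which are known to be homozygously deleted in PC3 cells, had signals of 4.77 and 4.07 and of 4.51 and 4.70 in PC3-SCR, against 9.76 and 9.86 and 9.06 and 9.05 in PC3-PDEF. Of 11 epithelial markers of PC3 cells measured, 8 fell and 0 rose, where 24.0% of all genes fell and 26.7% rose. Their mean log2 signal went from 7.84 in both PC3-SCR arrays to 6.31 and 6.32. Among them the laminin gene LAMB3 fell by 3.90. KRT8, KRT18, KRT19, EPCAM and CDH1 are counted again below among the epithelial target genes, and CD44 among the ESRP-regulated genes. Of 14 embryonic kidney and oncofetal markers measured, 9 rose and 2 fell, where 26.7% of all genes rose and 24.0% fell. Their mean went from 5.43 to 5.51 up to 7.46 to 7.48. Both marker lists were written with earlier results of these data known, so their counts and means are no separate evidence. NEFM, a neurofilament gene of the kidney and oncofetal list, was at 4.80 and 5.24 against 10.69 and 10.89. The cyclin gene CCND2 was at 4.51 and 4.35 against 9.78 and 9.92. The kidney factor genes of the same list went both ways. HOXD11 rose by 2.44, EYA1 by 1.905, SALL1 by 1.445 and WT1 by 0.43. The rise of WT1 missed the threshold when either PC3-PDEF array was left out. The PC3-SCR signals of HOXD11 and EYA1 were not above the gauge, so these sizes are not exact. Read against the gauge, they were at least 2.67-fold and 1.31-fold higher. PAX8 fell by 0.83, to signals not above the gauge, and OSR1 fell by 0.60 with no array above it. PAX2, SIX2 and LHX1 did not pass the test. Every difference between the groups given here lies between these same arrays, and the part that cell identity has in it was not tested. Array signals of a culture also cannot tell fewer cells of a kind from less RNA per cell.

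Genes on both sides of the EMT switch were lower in PC3-PDEF than in PC3-SCR. The inducers SNAI2, TWIST1 and ZEB1 fell by 1.24, 1.14 and 0.46 on the log2 scale, and ZEB2 rose by 0.76. On the epithelial side ESRP2 fell by 1.28, GRHL2 by 0.57 and OVOL1 by 0.35, the last 2 at signals not above the gauge, and SNAI1 and OVOL2 did not pass the test. In all, 6 of the 9 genes fell and 1 rose, where 24.0% of all genes fell, 26.7% rose and 50.7% changed in either direction. For 8 of the 9 genes the signals of the groups did not overlap, against 74.7% of all genes. Without either PC3-SCR array 3 of the 9 fell and 1 rose, and without either PC3-PDEF array 4 fell and 0 rose. Their log2 fold changes had a median of -0.46, against -0.05 over all genes. These are 9 genes chosen by name, and their counts describe them only.

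**Figure D1:**
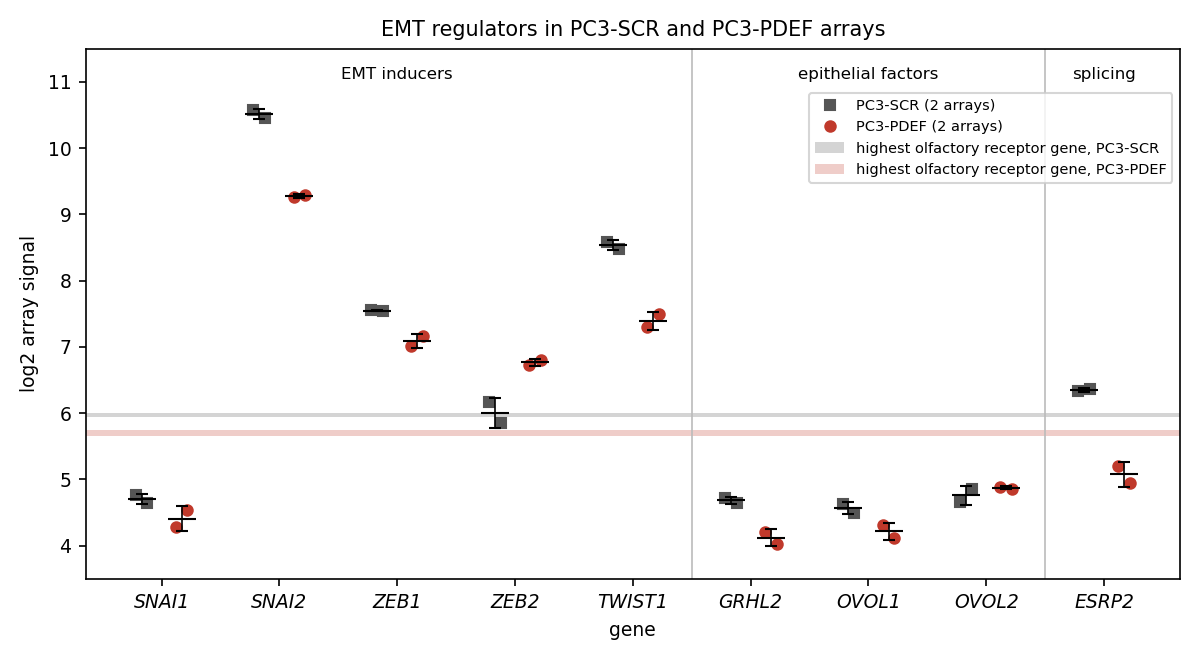
Log2 array signal (vertical axis) of each regulator (horizontal axis) in the 2 PC3-SCR arrays (squares) and the 2 PC3-PDEF arrays (circles). Lines give group means, bars give the SD (n = 2), and bands stand for the highest olfactory receptor gene of each group. SNAI2 lies at 10.57 and 10.46 against 9.26 and 9.30, ZEB2 is the only gene whose PC3-PDEF arrays lie clearly above those of PC3-SCR, and SNAI1, GRHL2, OVOL1 and OVOL2 lie below the bands. Signals of different genes come from different probes and are not to be set against each other.

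SNAI2, which encodes Slug, a zinc finger repressor of E-cadherin, had log2 signals of 10.57 and 10.46 in PC3-SCR and of 9.26 and 9.30 in PC3-PDEF. Both PC3-PDEF arrays were lower than both PC3-SCR arrays, and all were far above the gauge. The log2 fold change was -1.24 (standard error 0.086, 95% interval -1.44 to -1.03, adjusted p = 6.66e-05), a 2.35-fold lower level. SNAI1, which encodes Snail, was at 4.76 and 4.65 against 4.28 and 4.54. The groups did not overlap, but no array was above the gauge, and the log2 fold change of -0.30 (standard error 0.113) missed the threshold (adjusted p = 0.0703, unadjusted p = 0.0382). After median centring of the arrays its adjusted p was 0.0333. Of the third family member, SNAI3, which was not among the genes chosen, signals were 7.41 and 7.49 against 7.21 and 7.05, and it fell by 0.32 (adjusted p = 0.0298, and 0.0662 to 0.162 with any 1 of the 4 arrays left out).

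TWIST1, a basic helix-loop-helix factor that represses E-cadherin and activates N-cadherin, was at 8.59 and 8.48 in PC3-SCR and at 7.30 and 7.49 in PC3-PDEF. It fell by 1.14 (standard error 0.101, 95% interval -1.38 to -0.90, adjusted p = 0.000178), a 2.20-fold lower level, and all arrays were above the gauge. Its paralog TWIST2, with signals of 7.02 and 6.65 against 7.08 and 6.98, had a log2 fold change of 0.20 (95% interval -0.13 to 0.52, adjusted p = 0.273). The TWIST2 arrays of the groups overlapped.

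ZEB1, a zinc finger and homeodomain repressor of epithelial genes, was at 7.55 and 7.54 in PC3-SCR and at 7.01 and 7.16 in PC3-PDEF. The groups did not overlap, and ZEB1 fell by 0.46 (standard error 0.090, 95% interval -0.68 to -0.24, adjusted p = 0.00583), a 1.38-fold lower level. Its paralog ZEB2, which binds the same E-box sequences, was at 6.17 and 5.85 against 6.73 and 6.80. It rose by 0.76 (standard error 0.122, 95% interval 0.46 to 1.05, adjusted p = 0.00251), a 1.69-fold higher level, and the intervals of ZEB1 and ZEB2 did not overlap. PC3-SCR replicate 2 was not above the gauge for ZEB2, so the size of its change is not exact. The other ZEB2 probe set was dimmer and moved the other way, at 3.02 and 2.93 against 2.77 and 2.71, and with the mean of both the log2 fold change was 0.26 (adjusted p = 0.0677). With 1 array left out, the adjusted p of ZEB1 was 0.0707 without PC3-SCR replicate 1, 0.0682 without PC3-SCR replicate 2 and 0.0554 without PC3-PDEF replicate 1, and that of ZEB2 was 0.0813 without PC3-PDEF replicate 1 and 0.0972 without replicate 2.

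GRHL2, a grainyhead factor that activates E-cadherin and claudin genes, was at 4.72 and 4.65 in PC3-SCR and at 4.21 and 4.03 in PC3-PDEF, and OVOL1, a zinc finger repressor of mesenchymal genes, was at 4.63 and 4.50 against 4.31 and 4.12. Neither was above the gauge in any array, although the groups did not overlap. GRHL2 fell by 0.57 (standard error 0.096, adjusted p = 0.00319) and OVOL1 by 0.35 (standard error 0.103, adjusted p = 0.0295). OVOL2, at 4.66 and 4.86 against 4.89 and 4.86, overlapped between the groups and had a log2 fold change of 0.12 (95% interval -0.12 to 0.35, adjusted p = 0.369). The gauge itself was lower in the PC3-PDEF arrays, and its part in these small falls was not tested. For OVOL1 quantile normalization gave an adjusted p of 0.0537, and it was 0.0747 to 0.186 with any 1 of the 4 arrays left out, and that of GRHL2 was 0.0662 without PC3-SCR replicate 1, 0.0540 without PC3-SCR replicate 2 and 0.0506 without PC3-PDEF replicate 2. The paralogs GRHL1 (log2 fold change 0.34, adjusted p = 0.150) and GRHL3 (-0.07, adjusted p = 0.582) did not pass the test, and OVOL3 was not analysed here.

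ESRP2, which holds epithelial exons in transcripts, was at 6.33 and 6.37 in PC3-SCR and at 5.21 and 4.94 in PC3-PDEF. Both PC3-SCR arrays were above the gauge and neither PC3-PDEF array was. ESRP2 fell by 1.28 (standard error 0.111, 95% interval -1.54 to -1.01, adjusted p = 0.000166), and read against the gauge it was at least 1.57-fold lower. SNAI2, TWIST1 and ESRP2 passed the test in each of the 4 fits with 1 array left out.

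**Figure D2:**
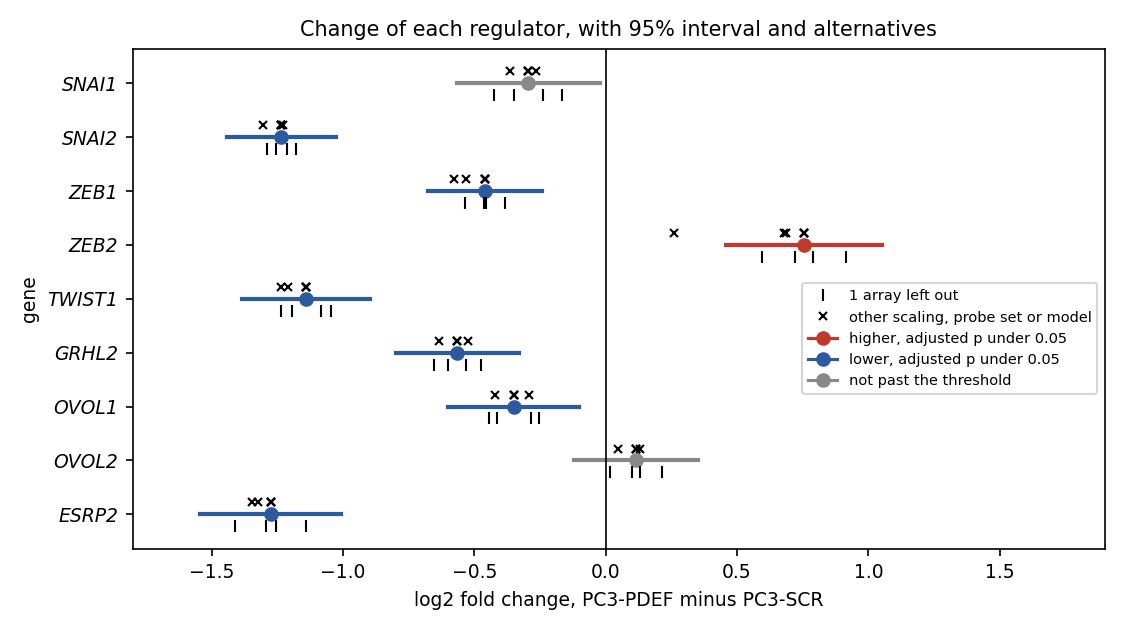
Log2 fold change between PC3-PDEF and PC3-SCR (horizontal axis) of each regulator (vertical axis), with its 95% interval as a bar (2 arrays per group). Black strokes give the value with 1 array left out and crosses the value under the other alternatives. ESRP2 at -1.28, SNAI2 at -1.24 and TWIST1 at -1.14 lie well to the left of 0, and ZEB2 lies at 0.76, with 1 cross at 0.26 for the mean of its probe sets.

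The microRNA probe sets read the stretch that holds the precursor, not the mature microRNA. Of 16 microRNA genes measured, 5 fell and 0 rose, where 24.0% of all genes fell and 26.7% rose. Of the 16, 15 were not above the gauge in any array. MIR200A was at 3.77 and 3.35 in PC3-SCR against 3.07 and 2.92, MIR200B at 5.74 and 5.41 against 5.14 and 5.26, and MIR429 at 5.17 and 5.30 against 4.73 and 4.88. All 3 lie in 1 cluster on chromosome 1 and fell, by 0.57, 0.38 and 0.43 (adjusted p = 0.0199, 0.0487 and 0.0107). MIR200C and MIR141, which lie together on chromosome 12 and hold the same pair of seeds, missed the threshold at log2 fold changes of -0.12 and 0.14 (adjusted p = 0.506 and 0.376). MIR221, the only one above the gauge, was at 7.38 and 7.33 against 6.83 and 6.81 and fell by 0.54 (adjusted p = 0.00184). MIR221 passed the test in each fit with 1 array left out. MIR200A and MIR200B passed it only without PC3-SCR replicate 2, with adjusted p of 0.106 to 0.309 in the other 3 fits, and MIR429 in none, with adjusted p of 0.0615 to 0.105, so that 1 to 3 of these genes fell.

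Of the epithelial genes that SNAI and ZEB proteins repress or GRHL2 activates, 32 were measured. Falls passed the test for 16 of them and rises for 6, while 10 missed it, where 24.0% of all genes fell and 26.7% rose, with a median log2 fold change of -0.42, and 5 of those that fell were not above the gauge in any array. CDH1, which encodes E-cadherin and is the gene most often used to read an EMT, was at 5.43 and 5.62 against 5.48 and 5.47, not above the gauge, with a log2 fold change of -0.05 (95% interval -0.28 to 0.18, adjusted p = 0.698). EPCAM, an epithelial adhesion gene, fell from 7.81 and 7.74 to 5.65 and 6.53 (log2 fold change -1.69, adjusted p = 0.00212), with an adjusted p of 0.101 without PC3-SCR replicate 1 and 0.0946 without PC3-SCR replicate 2. MAL2, a gene of apical transport, fell by 2.73 and the keratin gene KRT19 by 2.04. The desmosome gene DSP rose by 1.44 and PATJ, a polarity gene, by 1.19. In PC3-PDEF, 1 array was not above the gauge for EPCAM and for KRT19. MAL2 was at 5.66 and 5.78 in PC3-PDEF, barely above the gauge values of 5.65 and 5.75. The sizes of the falls of EPCAM, KRT19 and MAL2 are thus not exact.

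Mesenchymal genes fell as well. Of 29 measured genes 17 were lower, 3 were higher and 9 missed the threshold, with a median log2 fold change of -0.45. Over all genes 24.0% were lower and 26.7% higher, and 3 of the 17 were not above the gauge in any array. MMP14, a membrane metalloprotease gene, fell by 3.80 and the cadherin gene CDH11 by 3.46, and the fibronectin gene FN1 went from 9.85 and 9.79 to 7.68 and 7.72. CDH11 was at 5.82 and 5.84 in PC3-PDEF, little above the gauge, so the size of its fall is not exact. Of the classical markers, VIM was at 10.73 and 10.73 against 10.10 and 9.97 (log2 fold change -0.70, adjusted p = 0.000812), and CDH2, which encodes N-cadherin, was at 9.06 and 9.08 against 8.74 and 8.80 (-0.30, adjusted p = 0.0219, and 0.0731 to 0.0958 with any 1 of the 4 arrays left out). MMP2, a gelatinase gene, rose by 1.35 and the collagen receptor gene DDR2 by 1.09, both from PC3-SCR signals not above the gauge. Read against the gauge, DDR2 was at least 1.30-fold higher, and MMP2 allowed no such bound.

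Other transcription factors of either state changed in both directions. Of 18 other EMT factors measured, 5 were higher, 6 were lower and 7 missed the threshold, with a median log2 fold change of -0.01. ETS1 fell by 3.38, from 10.37 and 10.36 to 6.98 and 6.99, and the Hippo pathway factor gene TEAD2 fell by 0.91. MSX2, a homeobox gene, rose by 2.21 and SOX4 by 1.09. Of 13 other epithelial factors measured, 8 were lower, 3 were higher and 2 missed it, with a median of -0.33. Of the 8 that were lower, 3 were not above the gauge in any array. The counts of both lists stand against 24.0% of all genes lower and 26.7% higher. FOXA2 fell by 2.84 and TFAP2C by 1.94, while GATA3 rose by 1.80 and KLF4 by 0.90. The PC3-SCR signals of MSX2, GATA3 and KLF4 were not above the gauge, so the sizes are not exact, and read against it they were at least 2.13-fold, 2.64-fold and 1.33-fold higher. Without PC3-PDEF replicate 1 or replicate 2 the EMT factors that fell were 3 and the epithelial factors that fell were 4, and 2 to 3 EMT factors rose with any 1 of the 4 arrays left out, as did 3 after median centring. TEAD2 had an adjusted p of 0.0657 without PC3-PDEF replicate 1 and 0.0750 without replicate 2, SOX4 of 0.0536 without PC3-PDEF replicate 1 and KLF4 of 0.0636 without PC3-PDEF replicate 2.

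Of 20 splicing regulators linked to EMT, 8 were higher, 4 were lower and 8 missed the threshold, so that 60% were called against 50.7% of all genes, with a median log2 fold change of 0.15. HNRNPM, which favours the mesenchymal form of CD44, rose by 1.55 and SRSF3 by 1.41, while the muscleblind genes MBNL1 and MBNL2 fell by 1.08 and 0.64. Among 19 measured genes with exons that ESRP proteins regulate, 11 were higher, 5 were lower and 3 missed it, with a median of 0.34. The counts of both lists stand against 26.7% of all genes higher and 24.0% lower. Of the ESRP-regulated genes, GRHL1 is also counted among the other epithelial factors and LSR among the epithelial target genes. FGFR2 rose by 2.43, from 3.86 and 4.04, not above the gauge, to 6.36 and 6.39, and PLEKHA1 by 1.27. The size of the FGFR2 rise is not exact, and read against the gauge FGFR2 was at least 1.32-fold higher. CD44 fell by 3.36, while ITGA6, an integrin gene, fell by 2.58. One signal per gene was used, so the choice of exons was not measured here. With any 1 of the 4 arrays left out 2 splicing regulators fell, and of the ESRP-regulated genes 7 rose without PC3-PDEF replicate 1 and 3 fell without either PC3-SCR array or PC3-PDEF replicate 2.

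Among the partners of SNAI and ZEB proteins and the enzymes that set their turnover, 30 were measured, of which 11 were higher, 6 lower and 13 short of the threshold, with a median log2 fold change of 0.15. LOXL2, which encodes a lysyl oxidase known to stabilise Snail, fell by 2.89, and AJUBA, a corepressor of Snail, by 1.51. The Polycomb gene SUZ12 rose by 1.40 and BTRC, the ubiquitin ligase subunit that targets Snail for degradation, by 1.18. Of 18 genes of TGF-beta signalling, a main inducer of EMT, 10 were lower, 7 were higher and 1 missed the threshold, with a median of -0.40. For both lists the shares over all genes were 24.0% lower and 26.7% higher. The ligand gene TGFB2 fell by 4.41 to signals not above the gauge, and SMAD3, a transducer, fell by 1.96. Read against the gauge, TGFB2 was at least 16.45-fold lower. TGIF2, a repressor of SMAD proteins, rose by 1.43 and the co-receptor gene TGFBR3 by 1.38. Without PC3-PDEF replicate 1 or replicate 2 the number of TGF-beta genes that rose was 3, and without PC3-PDEF replicate 2 the number of partners that rose was 7. TGIF2 had an adjusted p of 0.0659 without PC3-PDEF replicate 1 and 0.0624 without replicate 2.

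**Figure D3:**
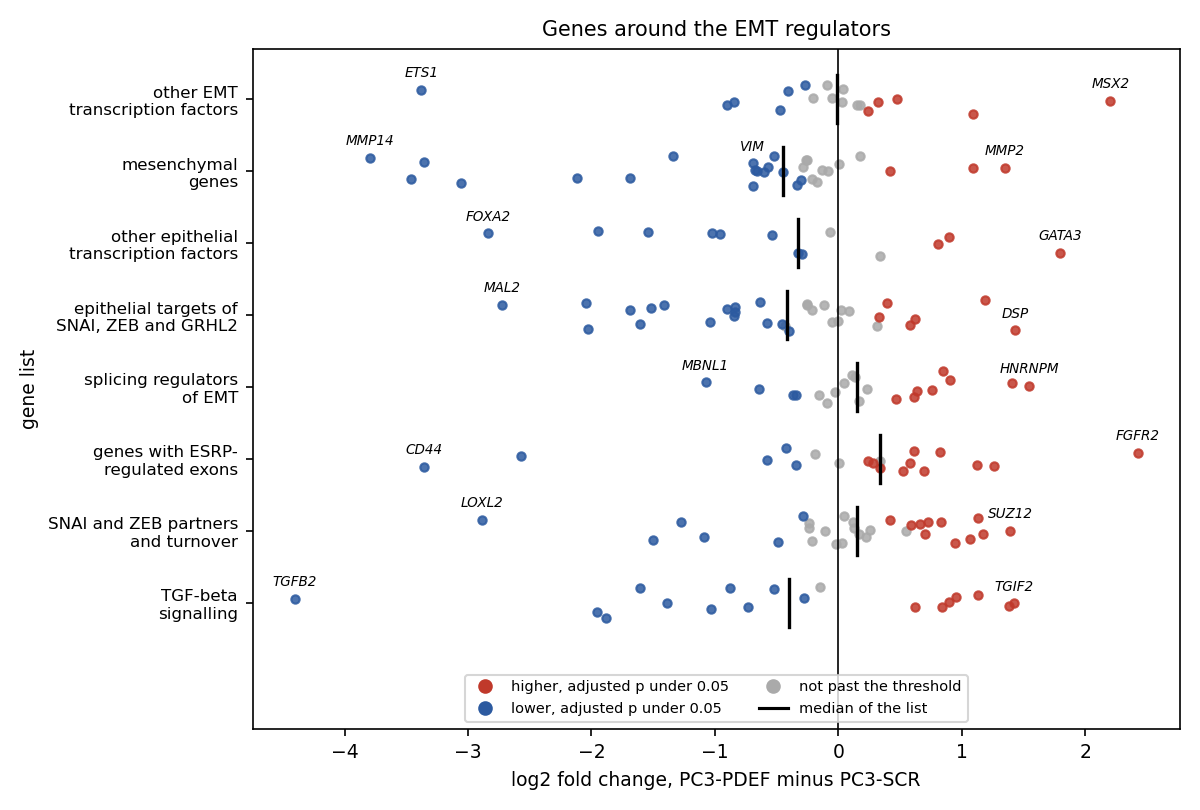
Log2 fold change between PC3-PDEF and PC3-SCR (horizontal axis) of the genes in 8 lists around the EMT regulators (vertical axis), 1 point per gene, with the median of each list as a black stroke. Both the mesenchymal genes (median -0.45) and the epithelial targets (median -0.42) lie mostly to the left of 0, and genes with ESRP-regulated exons (median 0.34) lie mostly to the right.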

How the data were processed

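RNA of 4 samples, 2 labelled PC3-SCR and 2 labelled PC3-PDEF, was measured on arrays. The deposited table holds 33297 probe sets as log2 values, which the authors obtained from Transcriptome Analysis Console. How the console corrected background and normalized, and its version, is not given in the sources used here, and the log base was read from the range of values. Array medians of 5.41 to 5.46 were nearly equal, so a shift of all genes would not be seen, and the values were used as deposited. Gene symbols came from the annotation of the platform (19460 with 1 symbol kept, 1754 with several and 12083 not listed left out) and were updated from the gene table of GRCh38.p14. Genes were fitted with limma 3.58.1 in R 4.3.3 (2 residual and 4.23 prior degrees of freedom, Benjamini-Hochberg adjustment over 18417 genes). The fit was also run on simulated data with independent noise and far fewer changed genes than were called here. That run is thus no check of these calls. A bound on a fold sets the brighter group's mean against the gauge. Named genes were, beside the 10 chosen, the 2 largest called rises and falls of each list and a few classical markers. Also named were SPDEF, CTNNA1, STAT3, the paralogs, the miR-200 genes, the kidney factor genes and the prostate luminal markers. The genes, lists and motifs were chosen with earlier results of these data known. The alternatives were quantile normalization, median centring, only genes above the median level, the mean over probe sets, an intensity trend with a robust prior, the replicate number as a block and leaving out each array, where the lone array is assumed to vary like the other group.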

Additional observations from a re-analysis of the deposited data

How the results depend on the processing

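SNAI2, TWIST1, ESRP2 and SPDEF kept their direction and passed the test under every alternative that tested them, SPDEF with log2 fold changes of 0.68 to 0.83. The direction of all 9 regulators held under every alternative. Only genes above the median level included 4 of the 9 regulators, since fewer genes were tested. There 3 regulators, 10 epithelial target genes, 4 other epithelial factors and 1 microRNA gene were lower. In the same fit 2 other EMT factors and 1 mesenchymal gene were higher. Of all genes in that fit, 3928 were higher and 3009 lower. How many genes of the other lists it tested is not given, so its counts are not to be set against those of the main fit. With the mean over probe sets 0 regulators were higher, and after median centring 3 other EMT factors were. With the replicate number as a replicate block the same 7 regulators passed the test, 1 paralog was higher and 0 lower, and 3 microRNA genes were lower. The number is not known to mark a shared culture, and the deviations of replicate 1 arrays from their group means correlated at 0.022 over genes. Above the 95th percentile of the olfactory receptor genes, in place of the highest, 8 regulators had both arrays of a group, against 5.
With each array left out in turn, there were 0 to 1 regulators higher and 3 to 4 lower, and 3010 to 3635 of all genes higher and 2326 to 2856 lower, against 4918 and 4419. It left 0 paralogs lower, 2 to 3 other EMT factors higher and 3 to 5 lower, 4 to 6 other epithelial factors lower and 7 to 11 partners of SNAI and ZEB higher. It left 2 splicing regulators lower, 7 to 8 ESRP-regulated genes higher and 3 to 4 lower, 3 to 6 TGF-beta genes higher and 1 to 3 microRNA genes lower. In each of these fits, fewer epithelial target genes and fewer mesenchymal genes also passed the test as lower. The fits with 1 array fewer have less residual information by construction. Regulators not above the gauge limit what signal over background can show.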

Other observations

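Markers of other cell types stayed mostly low in both groups. Their counts stand beside 24.0% of all genes that fell and 26.7% that rose. Of 9 leukocyte markers measured, 7 were not above the gauge in any array, 0 rose and 1 fell, the lysosomal gene CD68, from 9.60 and 9.48 to 7.31 and 7.41. Of 10 fibroblast markers, 9 were not above the gauge in any array, 0 rose and 4 fell, among them the collagen gene COL1A1 by 1.34 and LUM, a proteoglycan gene, by 1.35. Of these markers, COL1A1, COL1A2, COL3A1, PDGFRB, THY1 and FAP are also counted above among the mesenchymal genes. Of 7 endothelial markers, 5 were not above the gauge in any array and 3 fell, among them the receptor gene KDR by 2.23, to signals not above the gauge (at least 2.55-fold lower), and PECAM1 by 0.68. Of 4 prostate luminal markers measured, KLK3, KLK2 and ACP3 were not above the gauge in any array, and HOXB13 was at 6.63 and 6.65 against 6.78 and 6.74. ACP3 rose by 0.31 (adjusted p = 0.0216, and 0.0639 to 0.107 with any 1 of the 4 arrays left out). LUM had an adjusted p of 0.0617 without PC3-PDEF replicate 1 and 0.0529 without replicate 2, and PECAM1 of 0.0663 without PC3-SCR replicate 2, 0.0505 without PC3-PDEF replicate 1 and 0.0820 without PC3-PDEF replicate 2.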
